A study of Homo sapiens with 6 samples.

Results

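The kidney lineage transcription factors described here are 8 DNA-binding proteins, PAX2, PAX8, HNF4A, HNF4G, LHX1, WT1, EMX2 and TFCP2L1, chosen by symbol because they set or mark renal cell identity. Of these 8 genes, 6 had a row among the 30267 genes of the table and 4 (PAX8, HNF4G, WT1 and TFCP2L1) passed the filter on low values, which kept the 16554 genes that reached 10 normalized counts in 3 or more libraries. PAX2 and EMX2 had no row and were not analysed here, and HNF4A and LHX1 were detected at a few reads.

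The study asked what follows when RNF25, a RING-type E3 ubiquitin ligase, is depleted in SW839, an established human renal cell carcinoma line. Bulk total RNA was sequenced from 3 hairpin control libraries, called shControl and given PLKO names after the vector, and 3 libraries with a hairpin against RNF25, called shRNF25. The 3 control names differ in form, while the 3 knockdown names are a numbered series. The labels do not say whether the controls were prepared together or alongside the knockdown libraries, so a difference in preparation cannot be told apart from the depletion. All 6 libraries came from the same line, and no drug or time course separated the groups. The shRNF25 libraries are labelled with a single construct name, so an effect of that hairpin other than on RNF25 cannot be told apart from the depletion. The treatment text attached to every library, controls included, speaks of the RNF25 hairpin plasmid, and groups were therefore taken from the genotype labels. The study states that its experiments were repeated independently, but the labels do not tie the 3 libraries of a group to separate cultures, so the p-values measure the spread between these libraries, which may be technical.

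PAX2 and PAX8 are paired-box factors that start and maintain the nephric lineage, and LHX1 and EMX2 act in the same early ducts and tubules. WT1 is a zinc-finger protein of the nephron progenitor and later of the podocyte, TFCP2L1 is a grainyhead-like factor of the distal tubule and collecting duct, and HNF4A and HNF4G are nuclear receptors of absorptive epithelia, HNF4A being the one that drives proximal tubule genes. PAX8 stays on in most renal carcinomas and is used as a marker of them in pathology.

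Each library held between 18647460 and 19943154 reads on genes. RNF25 itself, at chr2:218663864-218672411 on the minus strand of GRCh38, read 694.2, 533.5 and 536.4 normalized counts in shControl 1, 2 and 3 and 214.1, 245.7 and 265.0 in shRNF25 1, 2 and 3. Its level in shRNF25 was 41.1% of that in shControl (log2 fold change -1.27, SE 0.150, limma adjusted p = 0.000585), in the direction of the labels. RNF25 shares 260 of its 2323 exon bases (11.2%) with STK36 on the opposite strand. STK36, named after its values were seen, rose from a mean of 794.9 to 1183 (0.585, limma adjusted p = 0.0130). If the counting did not use strand, reads in the shared bases cannot be told apart. The control libraries varied more among themselves than the knockdown libraries did, with a median coefficient of variation over tested genes of 18.2% against 6.70%. The epithelial keratins KRT8 and KRT18, named after their values were seen, averaged 28459 and 16985 normalized counts in shControl, and the leukocyte marker PTPRC had 4 to 16 reads per library. These genes do not stand for their lists. PTPRC was 1 of 13 leukocyte, endothelial, fibroblast and erythroid markers with a row, which summed to 1622 to 1999 normalized counts in shControl. CDH16, an epithelial marker of the kidney, had no row.

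The upstream sequences of the 3 members whose groups did not overlap are shown first. They were chosen by that outcome, which 42.5% of all tested genes shared (21.8% lower). None of the 3 passed both criteria for a call. Each runs 5′ to 3′ on the minus strand and ends at the base before the annotated GENCODE start, is taken from RefSeq promoter records on GRCh38.p14, and has its CG dinucleotides in capitals.
PAX8, chr2:113278951-113279171: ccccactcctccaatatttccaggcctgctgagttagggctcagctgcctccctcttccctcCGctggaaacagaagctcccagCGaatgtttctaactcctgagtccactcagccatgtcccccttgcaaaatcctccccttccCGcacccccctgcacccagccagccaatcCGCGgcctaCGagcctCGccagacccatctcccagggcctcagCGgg
TFCP2L1, chr2:121285208-121285452: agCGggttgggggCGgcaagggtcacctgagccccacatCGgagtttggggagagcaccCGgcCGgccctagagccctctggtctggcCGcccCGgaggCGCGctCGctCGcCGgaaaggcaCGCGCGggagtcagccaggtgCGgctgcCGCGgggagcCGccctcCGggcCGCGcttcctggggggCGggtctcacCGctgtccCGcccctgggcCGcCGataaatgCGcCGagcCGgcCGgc
WT1, chr11:32435631-32435789: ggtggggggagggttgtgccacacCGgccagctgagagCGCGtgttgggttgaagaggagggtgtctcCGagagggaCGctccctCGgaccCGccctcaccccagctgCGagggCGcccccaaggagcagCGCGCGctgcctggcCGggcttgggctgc

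The windows differed in base composition. TFCP2L1 held 31 CG dinucleotides in 245 bases, or 12.7 per 100 bases, at 76.7% G and C. WT1 held 13 in 159 bases, or 8.18 per 100 bases, at 73.0% G and C. PAX8 held 8 in 221 bases, or 3.62 per 100 bases, at 62.4% G and C, and was the one of the 3 below the median of 4.4 per 100 bases over 35116 RefSeq promoters. For that median and the shares of promoters below, 250 bases upstream of each RefSeq start were read. The 3 windows here are shorter, most of all that of WT1, and so leave less room for a match. All 159 bases of the WT1 window lie inside exons of WT1-AS, the RNA that runs away from WT1 on the opposite strand. Neither strand of these windows held the form of the NF-κB site searched (in 5.67% of all promoters), TGANTCA (AP-1, 6.57%), CAAAGTCCA (HNF4, 0.325%) or GCGTGGG (EGR and WT1, 6.19%), which says only that these letters are not in these windows.

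TFCP2L1 was the member that passed the adjusted p threshold. It lies at chr2:121216587-121285207 on the minus strand, and its reads were counted over 9372 exon bases. TFCP2L1 read 344.9, 450.4 and 364.8 normalized counts in shControl and 260.6, 264.1 and 244.0 in shRNF25. Every knockdown library was below every control library, and shControl 2 was the highest of the 6. The means were 386.7 ± 56.1 and 256.2 ± 10.7 (SD, n = 3 each), so that TFCP2L1 fell to 66.3% of its control level (log2 fold change -0.58, SE 0.139, 95% interval -0.90 to -0.27, limma adjusted p = 0.0173). The fold of 1.498 stood just under the 1.5-fold criterion that the study paired with an adjusted p of 0.05. Both criteria were met without shControl 1 (log2 fold change -0.66, limma adjusted p = 0.0026) and without shControl 3 (-0.62, adjusted p = 0.0222), and the fall was smaller without shControl 2 (-0.47, adjusted p = 0.0463). The adjusted p rose to 0.0741, 0.0682 and 0.0912 in limma without shRNF25 1, 2 or 3, with the log2 fold change between -0.61 and -0.55. Calls over all tested genes dropped in those fits too, to 813, 827 and 823 lower and 748, 824 and 831 higher. With all libraries they were 1175 lower and 1432 higher. No 50-base stretch of its longest annotated transcript occurred exactly in an annotated transcript of another gene. Copies with scattered mismatches were not searched for.

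WT1 was lower on average by a similar factor, with a wider spread. WT1 lies at chr11:32387775-32435630 on the minus strand, and read 445.5, 258.6 and 294.6 normalized counts in shControl and 193.2, 235.5 and 235.4 in shRNF25. The groups did not overlap, but shControl 1 stood well above the other controls and the gap between shControl 2 and the highest knockdown library was small. The means were 332.9 ± 99.2 and 221.4 ± 24.4 (SD, n = 3 each), or 66.5% of control (log2 fold change -0.55, SE 0.204, 95% interval -1.01 to -0.093, limma adjusted p = 0.0854). Without shControl 1 the log2 fold change was -0.32 (limma adjusted p = 0.0833). DESeq2 on the recovered reads gave -0.57 with an adjusted p of 0.0465, which is past the p threshold but short of 1.5-fold.

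PAX8 did not pass the test. It lies at chr2:113215997-113278950 on the minus strand. PAX8 read 123.8, 118.0 and 140.3 normalized counts in shControl and 95.7, 76.7 and 109.6 in shRNF25. Each knockdown library was below each control library, with shRNF25 2 the lowest. The means were 127.4 ± 11.6 and 94.0 ± 16.5 (SD, n = 3 each), or 73.8% of control (log2 fold change -0.45, SE 0.180, 95% interval -0.85 to -0.041, limma adjusted p = 0.110). Its adjusted p lay between 0.0694 and 0.368 over all alternatives run.

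HNF4G did not pass the test either, and differences between members were not tested. It lies at chr8:75407914-75566843 on the plus strand, and read 128.2, 79.0 and 122.0 normalized counts in shControl and 113.9, 132.1 and 95.3 in shRNF25. The groups overlapped, with the lowest value in shControl 2 and the highest in shRNF25 2. The means were 109.7 ± 26.8 and 113.8 ± 18.4 (SD, n = 3 each), with a log2 fold change of 0.071 (SE 0.221, 95% interval -0.43 to 0.57, limma adjusted p = 0.849). The interval holds falls as well as rises, and the sign turned when shControl 2 (-0.15) or shRNF25 2 (-0.042) was left out.

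HNF4A and LHX1 were near the limit of detection. HNF4A, at chr20:44355700-44434596 on the plus strand, had 1, 3 and 1 reads in shControl and 4, 1 and 3 in shRNF25. The sums of 5 and 8 reads had exact Poisson intervals of 1.62 to 11.7 and 3.45 to 15.8, which overlap. LHX1, at chr17:36936785-36944612 on the plus strand, had 0, 1 and 1 reads in shControl and 1, 5 and 0 in shRNF25. Its sums of 2 and 6 reads had intervals of 0.242 to 7.22 and 2.20 to 13.1. These intervals cover counting error only, and a difference in either gene was not detectable at this depth. In addition, 9.57% of the 50-base stretches of the LHX1 transcript also occur in other genes, almost all of them (9.45%) in AC243773.1. This antisense RNA overlaps 367 of the 4882 exon bases of LHX1 on the opposite strand. Reads in those bases cannot be told apart if the counting did not use strand.

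**Figure D1:**
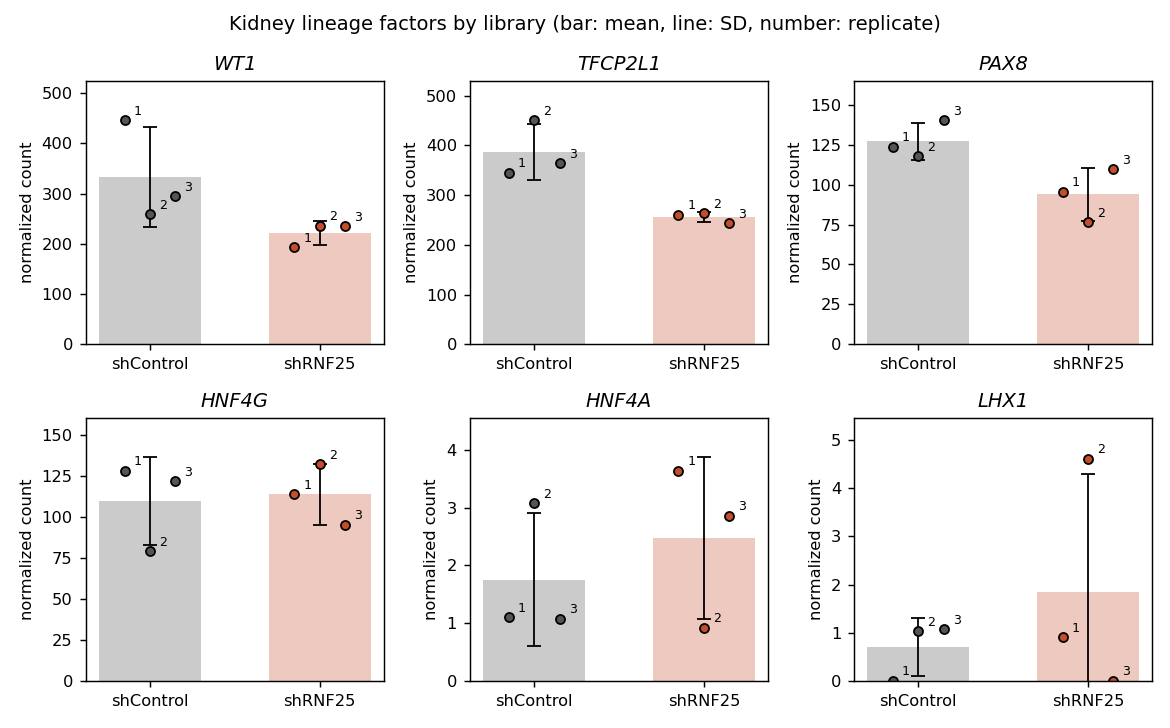
Normalized counts of the 6 members with a row, 1 panel per gene, with the linear axes starting at 0; points are libraries numbered by replicate, bars are group means and lines are SDs (n = 3 each). The shControl and shRNF25 points do not overlap for WT1, TFCP2L1 and PAX8, they overlap for HNF4G, and HNF4A and LHX1 stay below 5 normalized counts in every library. Groups without overlap were seen in 42.5% of all tested genes.

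Over the 4 tested members, 0 passed both criteria in either direction with limma, against 15.7% of the 16554 tested genes (7.1% lower and 8.65% higher). The counts were also 0 with edgeR and with DESeq2. On the adjusted p alone, 1 member was lower and 0 were higher with limma (against 10.8% and 10.5% of tested genes), 1 with edgeR and 2 with DESeq2. At an unadjusted p under 0.05, 3 members were lower and 0 higher with limma (against 35.4% of tested genes in either direction and 18% lower), 2 with edgeR and 2 with DESeq2. No overlap between the groups was seen in 3 of the 4 members, all of them lower in shRNF25, beside 42.5% of tested genes (21.8% lower and 20.7% higher). The exact two-sided permutation p for each of those 3 was 0.1, the smallest that 3 libraries against 3 can give. The median log2 fold change over the 4 was -0.50, beside -0.013 over all tested genes. In bulk RNA, fewer cells that express a gene and less RNA per cell cannot be told apart.

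**Figure D2:**
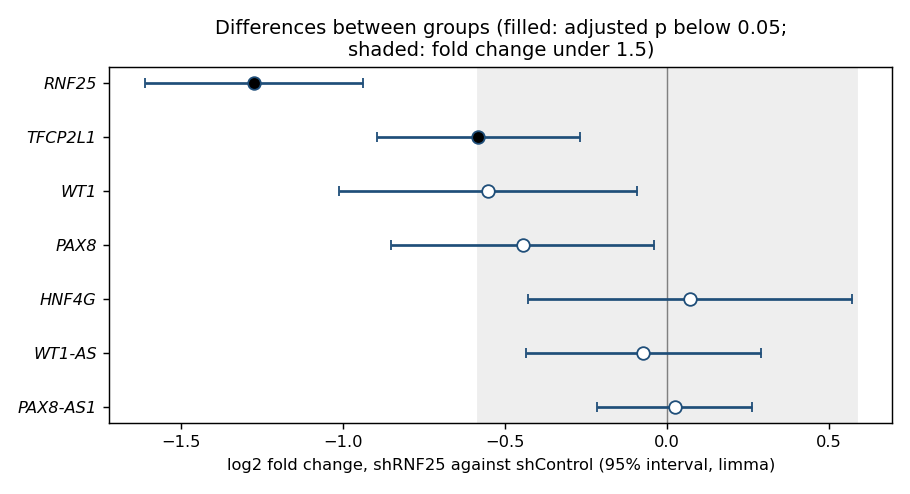
Log2 fold change of shRNF25 against shControl for RNF25, the 4 tested members and 2 antisense RNAs, with 95% limma intervals; filled points have an adjusted p below 0.05 and the shaded band marks changes under 1.5-fold. TFCP2L1 sits at the edge of the band at -0.58, WT1 and PAX8 lie inside it at -0.55 and -0.45, and HNF4G lies at 0.071.

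Levels were compared between genes per kilobase of exons. In shControl, WT1 was the most abundant member at 80.9 ± 24.1 normalized counts per kilobase (SD, n = 3), followed by TFCP2L1 at 41.3 ± 5.98, HNF4G at 22.8 ± 5.58 and PAX8 at 17.2 ± 1.56. The libraries of HNF4G (16.4 to 26.7) and PAX8 (15.9 to 19.0) overlapped, so these neighbours were not separated. HNF4A at 0.240 and LHX1 at 0.144 came last and also overlapped. PAX8, used as a renal carcinoma marker, was at the 22.7th percentile of 15940 tested genes ranked per kilobase in shControl, and WT1 was at the 50.6th. In shRNF25 the 4 tested members kept this order, with WT1 at 53.8 ± 5.94, TFCP2L1 at 27.3 ± 1.15, HNF4G at 23.7 ± 3.82 and PAX8 at 12.7 ± 2.24. There TFCP2L1 (26.0 to 28.2) and HNF4G (19.8 to 27.5) overlapped, while HNF4G and PAX8 (10.4 to 14.8) did not on the union length. LHX1 at 0.377 and HNF4A at 0.339 again overlapped.

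WT1 and PAX8 each have an antisense partner. PAX8-AS1, at chr2:113211522-113276581 on the plus strand, read 1114, 1178 and 1227 normalized counts in shControl and 1284, 1120 and 1175 in shRNF25. The groups overlapped, and the log2 fold change was 0.023 (95% interval -0.22 to 0.26, limma adjusted p = 0.899). PAX8-AS1 shares 685 of the 7400 exon bases of PAX8 (9.26%) and was the more abundant RNA, at 67.9 normalized counts per kilobase in shControl. WT1-AS, at chr11:32435518-32458769 on the plus strand, read 75.2, 78.0 and 74.5 normalized counts in shControl and 76.5, 70.2 and 69.6 in shRNF25, again with overlap. Its log2 fold change was -0.074 (95% interval -0.44 to 0.29, limma adjusted p = 0.780), and it shares 113 of the 4113 exon bases of WT1 (2.75%). The library kit keeps strand, but whether the counting used it is not given in the sources used here, and without it reads in the shared bases cannot be told apart. LHX1-DT, the divergent RNA of LHX1, had at most 2 reads in any library.

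Taking each sense gene over its partner within a library removes any scaling between libraries. The ratio of PAX8 to PAX8-AS1 was 0.111, 0.1002 and 0.114 in shControl and 0.0745, 0.0684 and 0.0933 in shRNF25. Those groups did not overlap (difference of mean log2 ratios -0.47; exact two-sided permutation p = 0.1, the smallest possible). The ratio of WT1 to WT1-AS was 5.93, 3.32 and 3.96 in shControl and 2.52, 3.36 and 3.38 in shRNF25. These overlapped, since shControl 2 lay below 2 of the knockdown libraries (difference -0.48; exact two-sided permutation p = 0.3).

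The fitted values of the 4 tested members under every setting are drawn together because TFCP2L1 and WT1 lie close to a threshold.

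**Figure D3:**
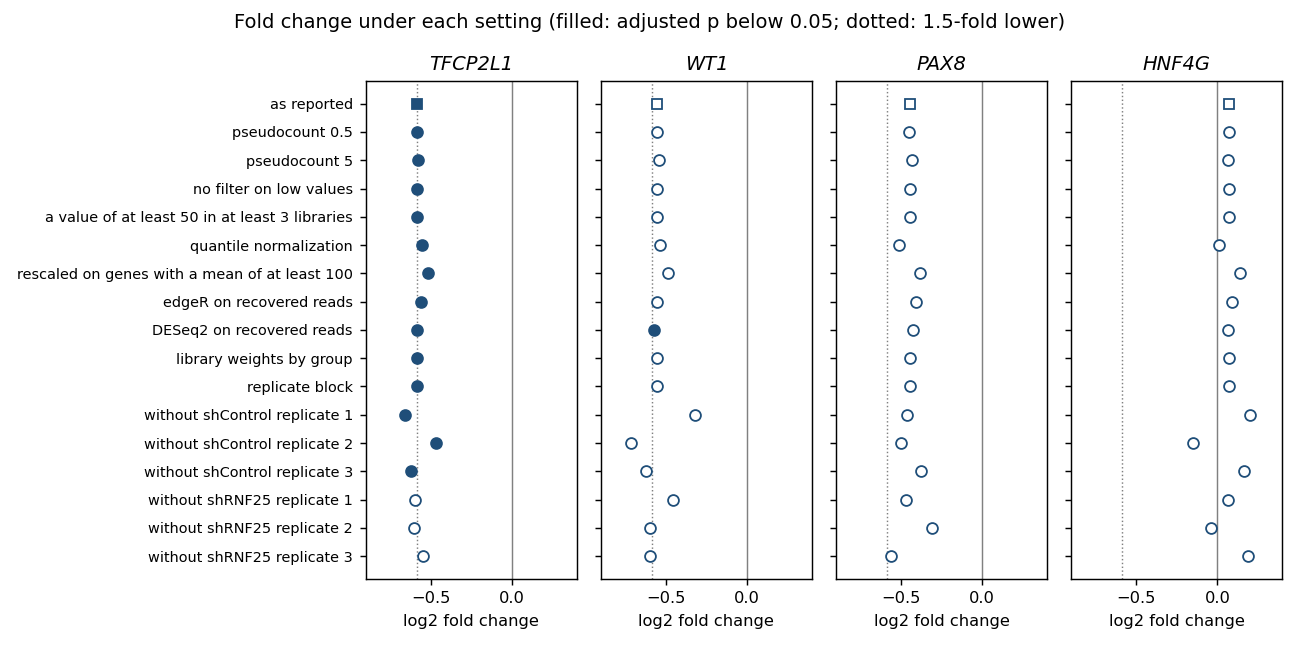
Log2 fold change of each tested member (horizontal axis) as reported (squares) and under 16 alternatives (circles); filled symbols have an adjusted p below 0.05 and the dotted line marks 1.5-fold lower. TFCP2L1 is filled under 13 of the 16 alternatives, WT1 under DESeq2, and PAX8 and HNF4G under none, and HNF4G crosses 0 without shControl 2 or shRNF25 2.

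Other transcription factors of the developing kidney did not move in 1 direction. Of 24 nephron progenitor and duct factors, 17 had a row and 13 were tested. Of those tested, 3 rose and 2 fell, with a median log2 fold change of -0.025. The share called was 38.5%, against 15.7% of all 16554 tested genes. Whether the share of this list or of those below differs from that was not tested. OSR1, an early intermediate mesoderm factor, read 216.7, 207.3 and 213.7 normalized counts in shControl and 404.6, 470.1 and 440.4 in shRNF25. The groups of OSR1 were far apart (log2 fold change 1.04, SE 0.122, limma adjusted p = 0.000585). HOXA11, a homeobox factor of the metanephric mesenchyme, rose from a mean of 261.2 to 440.4 (0.76, adjusted p = 0.00781). SOX4 fell from 2981 to 1740 (-0.75, adjusted p = 0.0105) and MEOX1 from 31.7 to 13.6 (-1.17, adjusted p = 0.0262). The calls of SOX4 and MEOX1 changed with single libraries: SOX4 lost it without shControl 3 (log2 fold change -0.56) or shRNF25 1, and MEOX1 without shControl 2, shRNF25 2 or shRNF25 3, and also with library weights estimated by group.

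Of 24 tubule segment factors, 20 had a row and 12 were tested, and 2 passed both criteria with limma, 2 with edgeR and 3 with DESeq2. The 2 that limma called rose, and both are nuclear receptors. They make 16.7% of the 12, close to the 15.7% of all tested genes. At an unadjusted p under 0.05, 3 of the 12 were lower and 3 higher, against 35.4% of all tested genes in either direction. ESRRG, which controls mitochondrial genes, read 12.2, 11.3 and 16.2 normalized counts in shControl and 47.4, 37.9 and 31.5 in shRNF25 (log2 fold change 1.49, SE 0.268, adjusted p = 0.00488). NR3C2, the mineralocorticoid receptor of the distal nephron, averaged 45.4 and 111.9 (1.29, SE 0.190, adjusted p = 0.00184). Among 16 tested family relatives of the members, 1 (6.25%, against 15.7% of all tested genes) fell past both criteria. It did so with each of limma, edgeR and DESeq2. That gene was GRHL3, a grainyhead factor of the same superfamily as TFCP2L1 that acts in surface epithelia, at 404.6, 344.7 and 264.4 in shControl and 151.3, 133.0 and 148.7 in shRNF25 (log2 fold change -1.20, SE 0.173, adjusted p = 0.00167).

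Of 17 tested cofactors of the members, 2 passed both criteria with limma and with edgeR, both lower, and 4 passed with DESeq2. The limma share was 11.8%, against 15.7% of all tested genes. BASP1, a corepressor that binds WT1, read 3967, 2968 and 3992 normalized counts in shControl and 1540, 1851 and 1664 in shRNF25. It fell by 1.10 on the log2 scale (SE 0.140, limma adjusted p = 0.000915). TLE4, a Groucho corepressor used by PAX proteins, fell from 361.8 to 209.4 (-0.76, adjusted p = 0.0164), a call lost without shControl 1 (-0.57) or any 1 of the shRNF25 libraries.

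**Figure D4:**
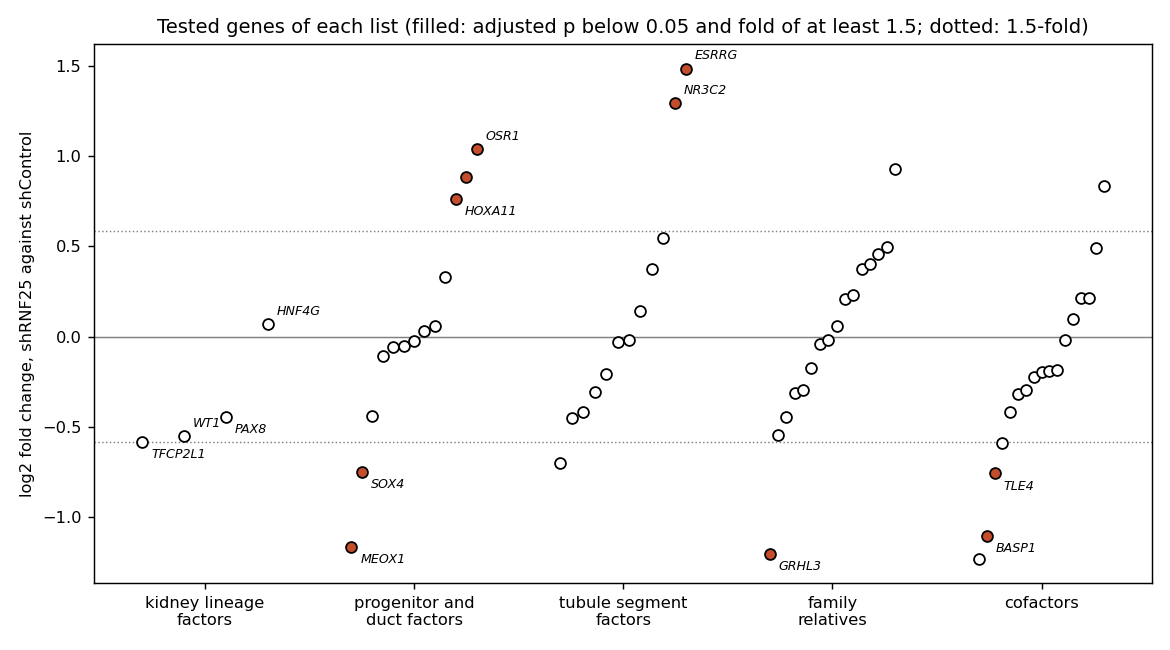
Log2 fold change of shRNF25 against shControl for the tested genes of 5 lists, ordered within each list; filled points passed both criteria and dotted lines mark 1.5-fold. The 4 kidney lineage factors are open, and the filled points number 5, 2, 1 and 2 in the progenitor and duct, tubule segment, family relative and cofactor lists. Both criteria were passed by 15.7% of all tested genes.

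Genes associated with the members moved both ways. Of 28 HNF4A-associated tubule and liver genes, 8 were tested, 2 rose and 1 fell (37.5% called, against 15.7% of all tested genes). DPP4, a brush border peptidase that also counts among the proximal tubule markers, rose from 143.5 to 394.3 normalized counts (log2 fold change 1.47, limma adjusted p = 0.000451), PDZK1, a scaffold of apical transporters, rose from 94.0 to 180.3 (0.94, adjusted p = 0.0034), and SERPINA1, the antitrypsin gene, fell from 52.6 to 10.8 (-2.12, adjusted p = 0.00572). Of 21 genes associated with PAX proteins, WT1 or LHX1, 7 were tested, 3 rose and 1 fell. The share called was 57.1%, against the same 15.7%. AREG, an EGF receptor ligand and WT1 target, fell from 3350 to 1492 (-1.16, adjusted p = 0.000213), while the Wnt receptor gene FZD8 rose from 2471 to 4649 (0.93, adjusted p = 0.00234). SPRY1, a feedback inhibitor of receptor tyrosine kinases, rose from 781.1 to 1186 (0.62, adjusted p = 0.0143) and lost its call without shControl 3 (0.48) or any 1 of the shRNF25 libraries.

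Markers of differentiated cells moved as follows beside the members. The share called was 28.6% for proximal tubule, 0% for distal nephron and collecting duct and 50% for podocyte markers. It was 33.3% for renal carcinoma and epithelial markers and 33.3% for leukocyte, endothelial, fibroblast and erythroid markers. For all tested genes it was 15.7%, and 35.4% had an unadjusted p under 0.05 in limma. Of 7 tested proximal tubule markers, 1 rose (DPP4) and 1 fell (ASS1, the argininosuccinate synthase gene, from 2899 to 1403; log2 fold change -1.03, limma adjusted p = 0.00227). Of 8 tested distal nephron and collecting duct markers, the segments where TFCP2L1 acts, 0 passed both criteria with limma, edgeR or DESeq2, and 1 was lower and 1 higher at an unadjusted p under 0.05 in limma. That count changed with the setting: 2 were higher without shControl 3, 1 was lower without shControl 2, and 1 was higher with a pseudocount of 5, no filter, library weights or the replicate block. Of 4 tested podocyte markers, 2 fell. They were the actin-associated SYNPO, at 2764, 2165 and 2604 in shControl and 879.3, 920.7 and 789.2 in shRNF25 (-1.53, adjusted p = 9.16e-05), and the adaptor CD2AP, from 1752 to 852.2 (-0.97, adjusted p = 0.0169), which lost its call without any 1 of the shRNF25 libraries. Of 12 tested renal carcinoma and epithelial markers, 3 fell (VEGFA, ANGPTL4 and KRT7) and 1 rose (VIM, from 355.4 to 831.9). ANGPTL4 read 3550 in shControl 3 against 448.8 and 452.5 in the other controls, its call held without shControl 3 with the log2 fold change at -1.39, and it was lost without any 1 of the shRNF25 libraries. KRT7 lost its call without shControl 3 (-0.50), without any 1 of the shRNF25 libraries and under quantile normalization (-0.22). Of 6 tested leukocyte, endothelial, fibroblast and erythroid markers, 1 fell (CDH5, from 124.7 to 5.89) and 1 rose (KDR, from 24.5 to 84.5). The summed level of that list was 1622 to 1999 in shControl and 1382 to 1679 in shRNF25, with overlap, and its part in the values of the members was not tested.

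The genes whose levels over the 6 libraries followed each member most closely were sought among 11338 others with a mean of at least 100 normalized counts, as a description, since the libraries share their groups. WT1 followed PDIA3, a disulfide isomerase of the endoplasmic reticulum (r = 0.997), and GNPTAB, which tags lysosomal enzymes (r = 0.995). TFCP2L1 followed ARHGEF35 (r = 0.998) and the splicing factor gene SF3B5 (r = 0.995). PAX8 followed DCP2, an mRNA decapping enzyme (r = 0.989), and CD47 (r = 0.970), and HNF4G followed ZFAND3 (r = 0.970) and CFDP1 (r = 0.949). These genes were picked as the highest of 11338 over 6 libraries, so a pair of members could not exceed them. Among the members themselves the coefficients were 0.632 for PAX8 with TFCP2L1, 0.568 for PAX8 with WT1 and 0.479 for WT1 with TFCP2L1, and HNF4G had -0.381 with TFCP2L1.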

How the data were processed

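RNA of 3 shControl and 3 shRNF25 SW839 libraries was made with a stranded, ribosomal RNA-depleted kit. The submitters' processing notes name fastp, HISAT2, HTSeq and GRCh38, without versions; annotation release and strand setting are not given in the sources used here. The deposited values are gene counts that the authors divided by size factors (unit: signal). Dividing by the value of 1 read returned whole reads for 100% of values (tolerance 0.001). The main test was limma 3.58.1 (R 4.3.3) on log2(value + 1) over genes reaching 10 in 3 or more libraries, so fold changes of low genes are understated. A call needed a Benjamini-Hochberg adjusted p below 0.05 and a fold of at least 1.5, which are the criteria of the study. Count tests on the recovered reads with edgeR 4.0.16 and DESeq2 1.42.0 were alternatives, beside other pseudocounts, filters and scalings, library weights, a replicate block and leaving out each library. The limma, edgeR and DESeq2 fits were tested on simulated data. Of 200 changed genes, limma recovered 179, edgeR 179 and DESeq2 184, with 7, 10 and 20 false calls. The simulation gave both groups the same spread and used larger changes than those of the members. It therefore does not bear on calls near 1.5-fold or on the unequal spread of these groups. Permutation tests and intervals used Python 3.11.15 with scipy 1.17.1. Positions are GENCODE 29 and promoters RefSeq GRCh38.p14. Genes were named by rule: the members, RNF25, the called genes of each list (at most 4 each way), the 2 most correlated genes per member and antisense RNAs. The members and lists were chosen with earlier results of these data known. Some genes of the lists are counted but not reported here by name. Depth per library was 18647460 to 19943154 reads.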

Additional observations from a re-analysis of the deposited data

How the results depend on the processing

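The number of members called lower was 0 under 15 of 18 alternatives and 1 (TFCP2L1) with no fold criterion and without shControl 1 or shControl 3, so that leaving out 1 library gave 0 to 1. The number called higher was 0 under all 18. Leaving out 1 library gave log2 fold changes of -0.66 to -0.47 for TFCP2L1, -0.71 to -0.32 for WT1, -0.56 to -0.31 for PAX8 and -0.15 to 0.20 for HNF4G. HNF4G turned negative without shControl 2 (-0.15) and without shRNF25 2 (-0.042). TFCP2L1 missed the adjusted p threshold without shRNF25 1, 2 or 3 (-0.60, -0.61 and -0.55), and WT1 passed it with DESeq2 (-0.57). The cause of either was not tested. Without shRNF25 1, 2 or 3, limma called 813, 827 and 823 of all tested genes lower and 748, 824 and 831 higher. Without shControl 1, 2 or 3 the counts were 1253, 1083 and 1269 lower and 1572, 1251 and 1725 higher. Calls lost on leaving out a knockdown library were thus not particular to the genes named here.

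Libraries share replicate numbers across groups, but same-numbered libraries did not deviate together (correlations -0.064, -0.087 and 0.047), so the numbers were not taken as pairs. With the replicate number as a block the members called lower were 0, TFCP2L1 had a limma adjusted p of 0.0270, and 1193 genes were lower and 1398 higher, against 1175 and 1432 without it. Counts of calls within the gene lists moved by over 1.5 times in 51 of 432 comparisons. Of all calls, 54.9% were higher, 62.6% after rescaling on well-expressed genes and 47.6% with a minimum of 50. At the depth here HNF4A and LHX1 could not be compared.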

Other observations

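Genes within 100 kilobases of a member and past the filter were read as neighbours, named after their values were seen. Beside PAX8, IL1RN had a log2 fold change of -0.23 and PSD4 of 0.31 (limma adjusted p of 0.302 and 0.118). Beside TFCP2L1, CLASP1, a microtubule plus-end protein gene, had -0.33 (limma adjusted p = 0.0646). Beside HNF4A, FITM2, a lipid droplet gene, had 0.48 (limma adjusted p = 0.0322), short of 1.5-fold, while TTPAL had -0.077, SERINC3 -0.028 and PKIG -0.078 (adjusted p of 0.624, 0.892 and 0.714). Beside LHX1, AATF had -0.13, and beside PAX2, which itself had no row, SLF2 had 0.22 (adjusted p of 0.487 and 0.268). WT1 had WT1-AS as its one tested neighbour.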
